A study of Mus musculus with 11 samples.

Results

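The cytosolic ribosomal protein genes encode the proteins of the ribosome that translates nuclear mRNAs. They were taken as the genes of the deposited count table whose symbol begins with Rpl or Rps, followed by a number and at most a short ending such as a, x, l or l1, or is Rplp0, Rplp1 or Rplp2, and whose mean over 11 mice was at least 100 counts. Of the 36666 genes listed, 81 had such a symbol and 78 of these reached the minimum. The members were thus selected on their symbol and mean count alone, and the family was taken up with the comparison of the genotypes already known. Just inside the minimum lay Rps27l, with a mean of 400.1 counts, and Rpl22l1, with 2177 counts. Just outside lay Rpl3l, with 16.7 counts, and Rpl39l, with 2.27 counts, and Rpl10l had 0 counts in each mouse.

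Poly(A)+ RNA of the cerebrum was sequenced from 11 male mice aged 1 year on a C57/Bl6 background. Of these, 7 were Polg mutators, homozygous for the D257A allele of the mitochondrial DNA polymerase gamma, which impairs its proofreading, and 4 were controls. Among the controls, mice 205, 239 and 246 were WT/WT and mouse 237 was WT/D257A, so 1 control carried a copy of the mutant allele. The comparison asks how expression in the brain differs when mitochondrial DNA is replicated with impaired proofreading. The depth of a library, taken as its sum of gene counts, was 28249345 to 121182250 in the controls and 37821243 to 91219204 in the mutators. In mutator mouse 248 the gene counts came to 3.00 per aligned read listed by the authors, against 0.744 to 0.775 in the other mice, and 76.29% of its reads were listed as aligned, against 88.29% to 94.09%. The totals listed for this mouse may cover only a part of its reads.

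A ribosome is built from a large and a small subunit, each made of ribosomal RNA and of proteins most of which are present in a single copy. The mRNAs of these proteins are abundant in most cells, and many begin with a run of pyrimidines at the 5′ end, the terminal oligopyrimidine tract, through which mTOR signalling controls their translation. In neurons ribosomes are found in the cell body and also in dendrites, where they serve local translation. The libraries had the markers of cerebral tissue. The 7 neuronal markers tested summed to 6178 CPM (counts scaled to the size of the library) in the controls and 6012 in the mutators, led by Snap25, and the 7 oligodendrocyte markers summed to 5513 and 5577 CPM, led by Mbp. The 2 cerebellar markers tested summed to 1.07 CPM in the controls and 2.16 in the mutators. Mutator mice 217 and 211 stood out, at 5.61 and 3.34 CPM, against 0.909 to 1.56 in the other mice.

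The ribosomal protein genes took a similar part of the library in both groups. Their summed share of the gene counts was 1.018% in mouse 205, 1.067% in mouse 237, 0.997% in mouse 239 and 1.107% in mouse 246, a mean of 1.047% ± 0.050 (SD, n = 4). In the mutators the share had its lowest value of 0.995% in mouse 249, a median of 1.058% and its highest value of 1.156% in mouse 217, a mean of 1.055% ± 0.052 (SD, n = 7). The groups overlapped, and the means differed by 0.0074 percentage points, less than the spread between mice. With single mice left out this difference lay between -0.0095 and 0.027, and it was below 0 in 3 of these 11 cases. Genes of the large subunit held between 62.6% and 63.3% of the family's counts in each mouse.

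All 78 members passed edgeR's filter on low counts, together with 17983 genes in all. With edgeR's quasi-likelihood test and Benjamini-Hochberg adjustment over all genes tested, 0 of the 78 had an adjusted p under 0.05, where 1.24% of all genes did. In each direction the count was 0 as well, against 0.439% of all genes called higher and 0.801% called lower in the mutators. With DESeq2 0 of the members had an adjusted p under 0.05 as well, where 3.54% of 17377 genes did. At an unadjusted p under 0.05 there were 2 members, Rpl13 and Rps15a, by edgeR and also 2 by DESeq2, where 15.8% of all genes were under that value in edgeR and 16.7% in DESeq2. This count of members lay between 0 and 7 over the alternative fits, most of the changes coming with single mice left out. For 0 members were the values of the groups free of overlap, against 2.62% of all genes.

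The median log2 fold change of the members, mutator minus control, was -0.012, with 31 higher and 47 lower, against 0.0014 over all genes, with 9072 higher and 8911 lower. The sign of this small median turned with the mice used, between -0.040 without control mouse 239 and 0.028 without control mouse 246. The values ran from -0.15 for Rpl28 to 0.12 for Rpl22l1, and 70 of the 78 lay within 0.1 of 0. The standard errors had a median of 0.055, and the 95% confidence intervals of 77 members lay inside -0.3 to 0.3. Over all members the lowest bound was -0.30, a fold of 0.810, and the highest was 0.29, a fold of 1.22.

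**Figure D1:**
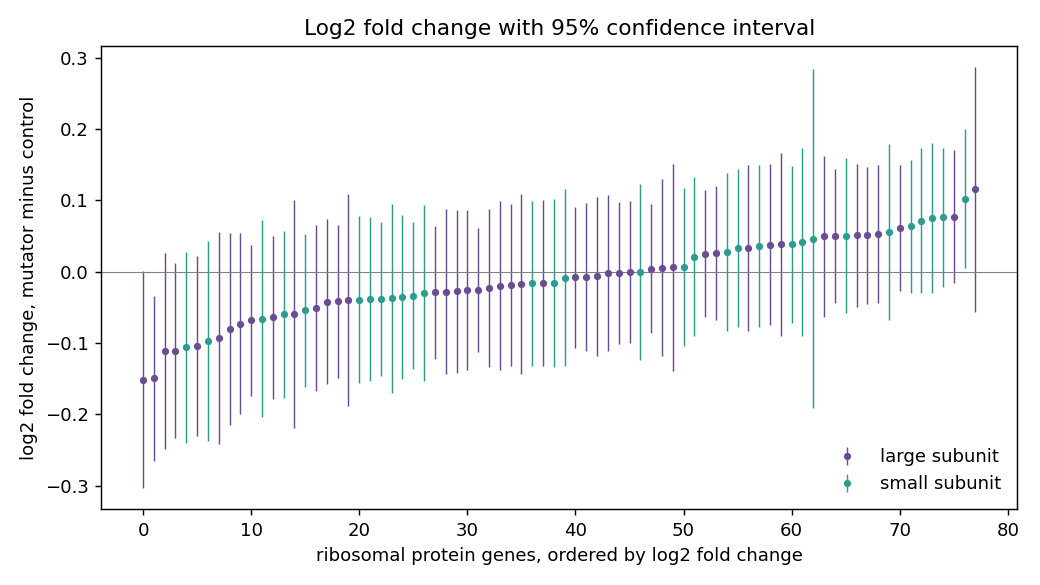
Log2 fold change of each of the 78 ribosomal protein genes, mutator (n = 7) minus control (n = 4), ordered by size, with points coloured by subunit and bars for the 95% confidence interval. The values run from -0.15 to 0.12, with 47 below 0 and 31 above.

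The large subunit contributed 47 members, whose log2 fold changes had a median of -0.017, 16 higher and 31 lower. Rpl28, a protein of the large subunit with its gene (ENSMUSG00000030432) at chr7:4744476-4746164 of mm9, had 95.2 CPM in mouse 205, 112.7 in mouse 237, 96.3 in mouse 239 and 106.6 in mouse 246. In the mutators it had 78.3 CPM at the lowest, a median of 89.5 and 107.0 at the highest. The WT/D257A mouse 237 was the highest of all 11 and the groups overlapped. On the log2 scale the mutators differed by -0.15, with a standard error of 0.072 (adjusted p = 0.321 in edgeR), and the difference lay between -0.19 and -0.065 over the alternative fits.

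Rpl13, also of the large subunit (ENSMUSG00000000740, chr8:125626250-125629144 of mm9), had the lowest adjusted p of the family. Its level was 152.3 CPM in mouse 205, 167.2 in mouse 237, 162.9 in mouse 239 and 177.6 in mouse 246. The mutators had 132.8 CPM at the lowest, a median of 151.4 and 163.4 at the highest. The groups overlapped, with control mice 205 and 239 within the range of the mutators. On the log2 scale the mutators differed by -0.15, with a standard error of 0.056 (adjusted p = 0.186 in edgeR), and the difference lay between -0.19 and -0.11 over the alternative fits.

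Rpl35 differed by -0.11 on the log2 scale (standard error 0.066) and Rpl37 by -0.11 (standard error 0.059). Over the alternative fits these lay between -0.17 and -0.061 and between -0.17 and -0.052. At the other end, Rpl22l1, a paralog of Rpl22, averaged 33.2 ± 1.4 CPM (SD) over the 4 controls and 36.0 ± 4.8 over the 7 mutators, with mutators from 30.2 to 43.9 CPM. That range held all 4 controls, which lay between 31.3 and 34.4 CPM, and its log2 fold change of 0.12 lay between 0.063 and 0.15 over the alternative fits. Rpl7 differed by 0.077 on the log2 scale (standard error 0.045).

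The small subunit contributed 31 members, whose log2 fold changes had a median of -0.00022, 15 higher and 16 lower. Rps15a (ENSMUSG00000008683, chr7:125247892-125259700 of mm9) had 154.6 CPM in mouse 205, 139.8 in mouse 237, 159.1 in mouse 239 and 153.6 in mouse 246. In the mutators it had 151.6 CPM at the lowest, a median of 163.3 and 173.7 at the highest. The groups overlapped, with the WT/D257A mouse lowest. On the log2 scale the mutators differed by 0.10, with a standard error of 0.047 (adjusted p = 0.293 in edgeR), and the difference lay between 0.066 and 0.13 over the alternative fits. Rps29 had the lowest log2 fold change of the small subunit, -0.11 (standard error 0.064), between -0.16 and -0.033 over the alternative fits. Rps6, the protein that S6 kinases phosphorylate downstream of mTOR, averaged 216.1 ± 14.6 CPM (SD) over the 4 controls and 227.6 ± 12.4 over the 7 mutators, and Rps25 differed by 0.077 on the log2 scale (standard error 0.047). Rps27a, which is made as a fusion with ubiquitin, differed by 0.056 on the log2 scale (standard error 0.059).

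Rplp0, Rplp1 and Rplp2 form the stalk of the large subunit that recruits elongation factors. Their log2 fold changes were -0.028 for Rplp0 (standard error 0.055), -0.073 for Rplp1 (standard error 0.061) and -0.042 for Rplp2 (standard error 0.056). All 3 were within 2 standard errors of 0, and over the alternative fits Rplp0 lay between -0.068 and 0.025, Rplp1 between -0.13 and -0.017 and Rplp2 between -0.083 and -0.0024.

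Levels between genes were compared per kilobase of transcript. With the length of the chosen annotated transcript, the members had a median of 159.6 CPM per kilobase, with quartiles of 115.4 and 214.8. Rplp1 had the highest level, 586.1 CPM per kilobase, followed by Rps24 with 411.1 and Rps15 with 405.9. Rps27l had the lowest, 12.8, followed by Rpl7l1 with 13.9 and Rps20 with 25.2. The order depended on the length used. Per kilobase of coding sequence Rplp1 was still highest, at 848.3, and Rps27l lowest, at 25.4, but Rps20, whose chosen transcript is 3706 bases long, had 261.7.

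The members differed in how much they varied between mice. The SD of log2 CPM over the 11 mice had a median of 0.091 among the members, against 0.14 over all genes tested and 0.10 over the 11385 genes with a mean count at least as high as that of the lowest member. It was smallest in Rpl27a (0.048), Rpl24 (0.052) and Rpl15 (0.053). Rpl27a averaged 143.7 ± 4.7 CPM (SD) over the 4 controls and 141.1 ± 4.9 over the 7 mutators. The SD was largest in Rps27l (0.20), which also had the fewest counts of the family, Rpl22l1 (0.16) and Rpl28 (0.16).

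The 4 members on the X chromosome, each present in 1 copy in these male mice, had log2 fold changes of 0.061 for Rpl10, 0.064 for Rps4x, 0.050 for Rpl36a and 0.0062 for Rpl39. The signs for Rpl10, Rps4x and Rpl36a were positive in every fit run, while that of Rpl39 turned with single mice left out. Their standard errors lay between 0.042 and 0.069, so each was within 2 of them from 0.

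Many members have near-identical copies in the genome, so their counts are uncertain. Of the stretches of 100 bases in each transcript, a median of 47.0% occurred elsewhere in mm9, with 0% in 4 members and over 80% in 15. The highest value was 99.6%, for Rps27. The 17 members with under 20% of shared stretches had log2 fold changes with a median of -0.016, 7 higher and 10 lower. The members lie on 19 chromosomes, 14 of them on chromosome 7 and 4 on the X chromosome, and 29 hold snoRNA genes, 55 in all.

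Some ribosomal proteins have paralogs encoded by a separate gene, and of the 6 paralogs tested 0 had an adjusted p under 0.05 by edgeR, where 1.24% of all genes did, and 0 an unadjusted p under 0.05, where 15.8% of all genes did. With so few genes a count of 0 says little about them. Rps27l, a paralog of Rps27, had 6.68 CPM in mouse 205, 4.74 in mouse 237, 6.91 in mouse 239 and 6.76 in mouse 246, and mutators had from 5.52 to 7.92 CPM with a median of 6.51. The WT/D257A mouse stood below every other mouse, and without it the log2 fold change turned from 0.047 to -0.062. Rpl7l1 differed by -0.051 on the log2 scale (standard error 0.056), and outside the members Rpl36al differed by -0.0075 (standard error 0.065) and Rps4y2 by -0.14 (standard error 0.089). Of the partners of the paralogs, 7 of 9 had a higher mean in the mutators.

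Rpsa, Fau and Gnb2l1 encode ribosomal components whose symbols the choice did not take. Rpsa averaged 294.6 ± 20.5 CPM (SD) over the 4 controls and 299.9 ± 20.9 over the 7 mutators.

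The members moved together from mouse to mouse, in both groups. For each gene the log2 CPM of a mouse was set against the gene's mean over the 11 mice. The median of this deviation over the 78 members was -0.056 in mouse 205, 0.035 in mouse 237, -0.072 in mouse 239 and 0.12 in mouse 246. In the mutators it was lowest in mouse 248, at -0.090, with a median of -0.0020, and highest in mouse 217, at 0.13. In mouse 217 all 78 members and in mouse 246 76 of the 78 lay above their own mean, while in mouse 239 only 7 did and in mouse 249 only 9. Mice 217 and 248 were 0.22 apart, a fold of 1.17. The mean over mice was 0.0055 ± 0.087 (SD) in the 4 controls and -0.0012 ± 0.070 in the 7 mutators.

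**Figure D2:**
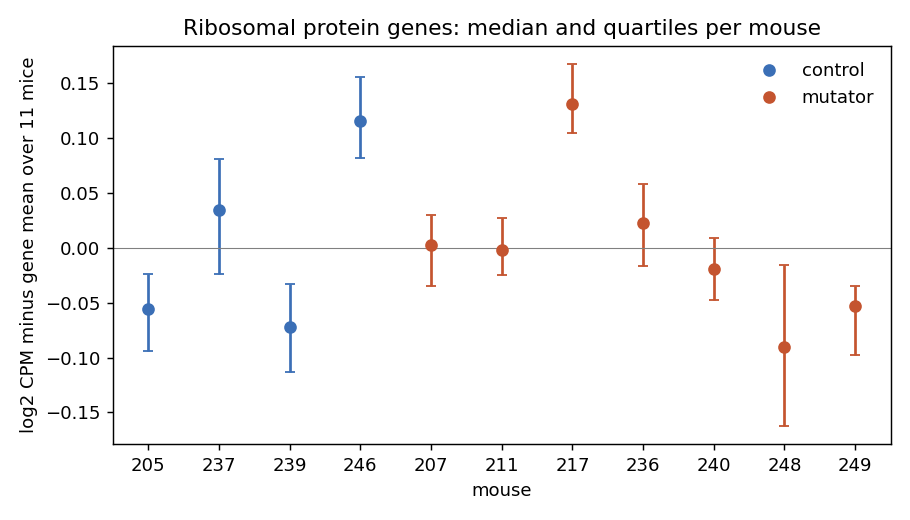
Median (points) and quartiles (bars) over the 78 ribosomal protein genes of the log2 CPM in each mouse minus the gene's mean over 11 mice, for the 4 control and 7 mutator mice. The family is highest in mutator mouse 217 and control mouse 246 and lowest in mutator mouse 248, so high and low mice occur in both groups.

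Over the 3003 pairs of members, Pearson's r of log2 CPM across the 11 mice had a mean of 0.60 and was above 0 in 2912 of them. The mean over all pairs of genes tested was 0.00045. Scaling the libraries centres the bulk of the genes in each mouse and so holds this mean near 0, and it gives no scale for the members' value. All pairs share the same 11 libraries and their depth, and the values are a description. With the mean of each group subtracted, the mean r of the members was 0.65.

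Some other lists were high in the same mice and some were not. Nuclear genes for complex I of the respiratory chain also had their highest median deviations in mice 246 and 217, at 0.13 and 0.087, and their lowest in mouse 248, at -0.12. Mitochondrial ribosomal protein genes were highest in the same mice, at 0.078 and 0.069, and lowest in mouse 248, at -0.053. The same 2 mice also had the highest median deviations for translation factors, at 0.053 in mouse 246 and 0.063 in mouse 217, for neuronal markers, at 0.096 and 0.050, and for oligodendrocyte markers, at 0.13 and 0.25. The summed CPM of these 2 marker lists did not rank the mice in this way. Neuronal markers summed to 6390 CPM in mouse 246 but to 6010 in mouse 217, below 6225 in mouse 249. Oligodendrocyte markers summed to 6909 CPM in mouse 217 but to 5617.5 in mouse 246, below 5771 in mouse 207. In contrast, the median deviation of genes of RNA polymerase I and of the control of ribosome production was lowest in mouse 217, at -0.032. In mouse 246 it was -0.0077. Other lists followed the family in part. Ribosome biogenesis genes were highest in mouse 246, at 0.054, but second highest in mouse 248, at 0.049, and at 0.015 in mouse 217. Astrocyte markers were highest in mouse 217, at 0.13, but at -0.0028 in mouse 246. The 8 microglial markers, led by Csf1r, summed to 344.6 CPM in mouse 205, 400.1 in mouse 237, 327.1 in mouse 239 and 416.7 in mouse 246, and in the mutators to 316.7 CPM at the lowest, in mouse 207, a median of 350.6 and 394.4 at the highest, in mouse 217. Mice 217, 246 and 237 were thus the 3 highest both in this sum and in the family's deviation. The lowest sum, in mouse 207, went with a deviation of the family of 0.0030. The next lowest sums, 317.3 CPM in mouse 248 and 327.1 CPM in mouse 239, went with deviations of -0.090 and -0.072. All 8 had counts in each mouse. Among the other marker lists, 1 of 5 pericyte genes, Abcc9, and 1 of 5 platelet genes, Ppbp, were called higher in the mutators, so that 2 of all 65 marker genes tested were called (3.08%), against 1.24% of all genes. Ppbp was not called without mice 237 and 248 (adjusted p = 0.0854 in edgeR), where its log2 fold change was 3.64, against 3.83 with all mice. Mouse 217 also had the highest sum of the cerebellar markers, 5.61 CPM, and mouse 246 the fewest gene counts, 28249345. The part of cell makeup and depth in the family's level was not tested, and in bulk tissue fewer cells of a type and less RNA per cell cannot be told apart.

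The log2 fold changes of the members followed the base composition of their transcripts. GC content ran from 41.3% to 60.9% with a median of 51.2%, and its Spearman correlation with the log2 fold change over the 78 members was -0.57. In the 17 members with under 20% of shared stretches it was -0.28. In the third of the members with the lowest GC content, 26 genes, the median log2 fold change was 0.030 with 17 higher, and in the third with the highest it was -0.039 with 3 higher and 23 lower. The relation was not particular to the family, since over 15556 tested genes with a sequence the correlation was -0.42. Genes share libraries and are not independent replicates, so no p is given.

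Single mice carried much of this relation. Within a mouse, the correlation of GC content with the members' deviations was 0.68 in control mouse 237. It was -0.66 in mutator mouse 248, -0.53 in mouse 211, and between -0.32 and 0.35 in the other 8. Without mouse 237 the correlation with the log2 fold change was -0.39, and without mouse 248 it was -0.50. With both left out it was -0.26, an alternative chosen after seeing the data.

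**Figure D3:**
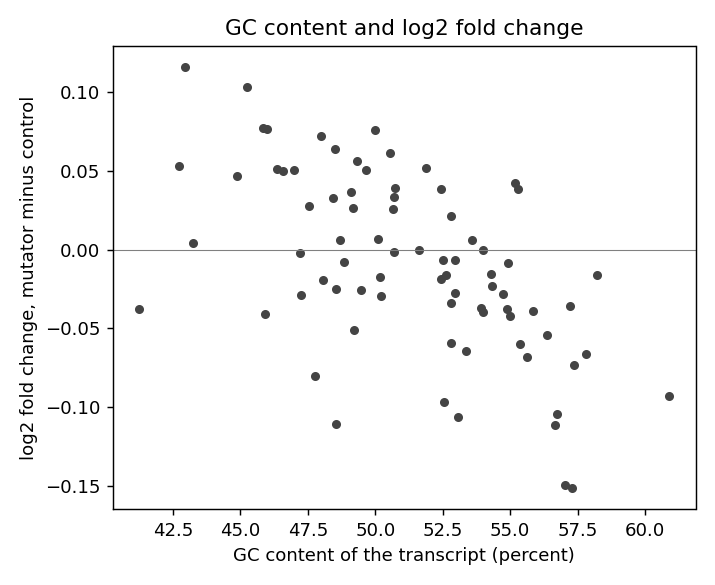
GC content of the transcript (percent) against log2 fold change, mutator minus control, with a point for each of the 78 ribosomal protein genes. The points fall from left to right, with a Spearman correlation of -0.57, which was -0.26 without mice 237 and 248.

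Since the members moved together, the sequence around their starts was examined in RefSeq promoter windows of build GRCm38.p6, 250 bases before to 50 after the start. Of the 78 members 58 were matched, with 69 windows. A run of at least 8 bases of C or T within 5 bases of the start was present in 34.8% of these windows, and in 9.72% of all 32851 windows. Some of these runs end before the annotated start, as in Rpl4, so the share is not one of terminal oligopyrimidine tracts. On either strand CTTTCC was found in 47.8% of the members' windows and 26.6% of all, CCGGAAG in 34.8% and 8.86%, AAGATGGC in 11.6% and 2.75%, CACGTG in 11.6% and 7.15%, and TATAAA in 10.1% and 13.6%. A match is a description of the letters and not a binding site.

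Windows that hold such a run are shown for 2 members with low log2 fold changes, Rpl28 and Rpl35, for 2 with high ones, Rps15a and Rps6, and for 2 with long runs, Rpl15 and Rpl27a, from 10 bases before the start, with the run in capitals. Rpl28 lies at chr7:4792955-4792984 on the plus strand, Rpl35 at chr2:39005112-39005141 on the minus strand, Rps15a at chr7:118116128-118116157 on the minus strand, Rps6 at chr4:86857348-86857377 on the minus strand, Rpl15 at chr14:18270967-18270996 on the minus strand and Rpl27a at chr7:109519185-109519214 on the plus strand.
Rpl28: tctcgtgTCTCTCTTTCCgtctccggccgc
Rpl35: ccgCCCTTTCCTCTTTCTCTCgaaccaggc
Rps15a: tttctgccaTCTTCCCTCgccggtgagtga
Rps6: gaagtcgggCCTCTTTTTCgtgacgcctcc
Rpl15: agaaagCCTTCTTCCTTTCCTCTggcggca
Rpl27a: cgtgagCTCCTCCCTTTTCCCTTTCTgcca
Runs occur in members from both ends of the log2 fold changes, and other members at these ends lack one of that length. The longest near the annotated start was 4 bases in Rpl13, 3 in Rpl37 and 4 in Rps25. Whether their mRNAs begin with a shorter tract was not tested.

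Exon usage was compared in the 10 mice with exon counts, 7 mutators and 3 WT/WT controls. A bin is a piece of a gene between the borders of its annotated exons, and its usage is its level relative to the other bins of the gene. Of 883 bins tested in the 78 members, 0 had an adjusted p under 0.05 with edgeR's diffSpliceDGE, where 0.0237% of 206930 bins did, and limma's diffSplice also gave 0. At an unadjusted p under 0.05 there were 15 of the members' bins, where 1.9% of all bins were under that value. The lowest p was that of bin 10 of Rps24, in a gene whose short last exons are known to be alternatively spliced. In an annotation of the same build but a later release than the one used for the counts, this bin lies on chromosome 14 of mm9 from 25314997 to 25315033. It held 0.827% of the gene's counts in mouse 205, 0.732% in mouse 239 and 0.974% in mouse 246, and in the mutators from 0.953% to 1.09% with a median of 1.05%. The groups overlapped, and the log2 change in usage was 0.35 (standard error 0.12, adjusted p = 1.00 with edgeR). Bin 4 of Rps26 had a log2 change in usage of 0.23 (standard error 0.092).

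Of the 116 genes tested for ribosome biogenesis, translation factors and the control of ribosome production, 1 was called (0.862%), where 1.24% of all genes were. Ribosome biogenesis genes, which process ribosomal RNA and assemble subunits, had log2 fold changes with a median of 0.024, and 31 of 48 were higher. Ncl, which encodes nucleolin, a nucleolar protein that binds ribosomal RNA precursors, was the 1 with an edgeR adjusted p under 0.05. It had 296.8 CPM in mouse 205, 269.1 in mouse 237, 271.6 in mouse 239 and 291.1 in mouse 246, and mutators had from 310.3 to 326.8 CPM with a median of 321.1. The lowest mutator lay above the highest control. On the log2 scale the mutators differed by 0.18, with a standard error of 0.041 (adjusted p = 0.0332 in edgeR). The adjusted p was over 0.05 in 7 of the 20 distinct alternative fits, and ranged from 0.00083 to 0.205.

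Translation factors, which start and lengthen the peptide chain, had log2 fold changes with a median of 0.023, 25 of 38 higher and 0 called. Eif5, an initiation factor, had a log2 difference of 0.15 with a standard error of 0.047 (adjusted p = 0.119 in edgeR), and Eef1a2, the elongation factor of neurons and muscle, one of -0.16 with a standard error of 0.050 (adjusted p = 0.108 in edgeR). Genes of RNA polymerase I and of the control of ribosome production had a median of 0.014, with 19 of 30 higher and 0 called, from -0.30 for Mycn to 0.19 for Eif4ebp1, which lay between 0.081 and 0.35 over the alternative fits.

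Other large complexes gave a scale for these medians. Mitochondrial ribosomal protein genes had log2 fold changes with a median of -0.037, 24 of 76 higher and 0 called. Nuclear complex I genes had a median of -0.080, with 3 of 37 higher and 0 called, from -0.21 for Ndufa1 to 0.057 for Ndufs1. Ndufa1 had an adjusted p of 0.0402 without control mouse 205 and of 0.0449 without mutator mouse 217. Core proteasome genes had a median of 0.011, with 8 of 14 higher and 0 called. No difference between these lists was tested.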

How the data were processed

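The authors aligned paired end reads to mm9 with TopHat2 2.0.6 and Bowtie2, counted them per gene and per exon bin with HTSeq, and deposited the counts without normalization. They also deposited read totals (numbers of reads and percent aligned), used here only to describe the libraries. Their comparison tables hold fold changes and p-values and were not used. Members and lists were chosen with earlier results of these data known.

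Here 7 mutators were compared with 4 controls by the quasi-likelihood test of edgeR 4.0.16 under R 4.3.3, after filterByExpr and TMM, with a robust fit and a threshold of 0.05, and log2 CPM used a prior count of 2. DESeq2 1.42.0, sva 3.50.0 and limma 3.58.1 gave alternatives. The steps were tested on simulated data. Transcripts, GC content and shared stretches came from GENCODE vM1 (Ensembl 65) on the same build. Named members were the 5 highest and 5 lowest in log2 fold change, the 3 highest and 3 lowest in level per length and in spread over mice, paralogs and their partners, and Rps6, Rps24, Rplp0, Rplp1, Rplp2 and Rps27a. From other lists, genes called or else the highest and lowest were taken. Rpl41 was not among the 81 matching symbols of the count table, so it could not be analysed here. Which mouse was in which sequencing pool is not given in the sources used here, so no pool entered the fits.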

Additional observations from a re-analysis of the deposited data

Results flagged for a closer look

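Mice far from the rest of their group were looked for by Dixon's test, which sets the distance from an extreme mouse to the next one over the whole spread of the group. It was run 144 times, on groups of 4 and of 7 mice, and passed its limit 6 times. By chance about 1 in 20 would pass, or 7.2 here. Control mouse 237 was lowest for Rps27l (0.910), at 4.74 CPM against 6.68 to 6.91. Mutator mouse 217 was highest for Rpl36a (0.620), at 80.4 CPM, and for Gfap (0.703). Mutator mouse 207 was lowest for Clic6 (0.623) and control mouse 246 highest for Ppbp (0.891). Mutator mouse 248 was highest in gene counts per aligned read (0.988), at 3.00. What lies behind these gaps was not tested.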

How the results depend on the processing

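The 0 calls among the ribosomal protein genes and the 0 calls among their exon bins were the same in each alternative run, as was the summed share within the spread of the controls, at -0.0095 to 0.027 percentage points with each mouse left out, and the median log2 fold change stayed between -0.040 and 0.028. The number of genes called over the whole table moved from 223 to 346 with no filter on low counts, 615 with DESeq2, 50 with the WT/WT controls only and 41 without mice 237 and 248, the last chosen after seeing the data, and leaving out each mouse gave 50 to 412. Exon bins called moved from 49 to 25 with limma, 21 with merged gene groups left out, and 5 to 186 with each mouse left out. The cause was not tested.

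The fit with the WT/WT controls only is also the fit without mouse 237 and was counted once below. Of 1360 values of 68 genes under 20 distinct alternatives, 39 in 15 genes turned sign, all in genes not called. With the WT/WT controls only, Fau came to 0.014, Rpl15 to -0.0067, Rpl24 to -0.0011, Rpl39 to -0.023 and Rps27l to -0.062. With 1 surrogate variable Rpl36al came to 0.00042. Without mice 237 and 248, Fau came to 0.058, Gnb2l1 to 0.0090, Rpl26 to 0.013, Rpl39 to -0.023, Rplp0 to 0.025, Rps15 to 0.017 and Rps27l to -0.069. With each mouse left out, the ranges were -0.0043 to 0.17 for Ctss, -0.084 to 0.028 for Fau, -0.046 to 0.019 for Gnb2l1, -0.029 to 0.10 for Rarres2, -0.010 to 0.027 for Rpl15, -0.0011 to 0.057 for Rpl24, -0.057 to 0.041 for Rpl26, -0.049 to 0.064 for Rpl36al, -0.039 to 0.055 for Rpl39, -0.074 to 0.23 for Rpl3l, -0.078 to 0.0038 for Rpl7l1, -0.068 to 0.0081 for Rplp0, -0.062 to 0.098 for Rps27l and -0.0048 to 0.057 for Rpsa. Calls were gained 13 times, in Aqp4, Clic6, Flt1, Mag, Ndufa1 and Slc17a7, and lost 8 times, in Ncl and Ppbp. Ncl kept its direction in all 20 alternatives and had an adjusted p over 0.05 in 7, the highest 0.205. Differences below about 0.1 on the log2 scale are within 2 standard errors for a typical member at this depth and number of mice.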
